A study of Mus musculus with 4 samples.

Results

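Glutathione S-transferases are enzymes that join the tripeptide glutathione to reactive, electrophilic compounds, which makes these compounds more soluble and easier to export. The soluble enzymes form classes named by Greek letters, which differ in sequence and substrates, whereas the microsomal enzymes belong to an unrelated membrane family. Many of their genes are known targets of NRF2, the transcription factor that the study examined in stretched osteocyte-like cells. To ask whether a difference under loading was limited to the alpha class or shared by the other classes, 10 transferase genes were selected by name from the 55450 gene rows of the count table. These were *Gsta4* of the alpha class, *Gstm1*, *Gstm2* and *Gstm5* of the mu class, *Gstp1* of the pi class, *Gsto1* of the omega class, *Gstt1* of the theta class, *Gstz1* of the zeta class, and the microsomal genes *Mgst1* and *Mgst3*. Each name occurred in 1 row, and all 10 genes passed the filter on low counts.

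RNA-seq was performed on 2 unloaded and 2 loaded samples of wild-type MLO-Y4 cells, a mouse cell line derived from long bone with osteocyte-like properties. The loaded cells grew on collagen I-coated UniFlex plates with a silicone rubber floor and, from 60% confluency, were stretched equally in all directions by 20% at a frequency of 0.5 Hz over 12 h. The unloaded cells were placed in the incubator of the same Flexcell system for 12 h, but on standard 6-well plates, so stretch and plate surface cannot be told apart in this comparison. All libraries come from 1 cell line, and no label says whether replicates were separate cultures, so p-values measure the spread between these samples only. In bulk RNA, more RNA per cell and more cells with that RNA cannot be told apart.

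Library totals ranged from 28941994 to 32185693 counts, with a biological coefficient of variation of 16.6% between replicates. A floor of 3 counts corresponded to between 0.093 and 0.103 CPM (counts scaled to the size of the library), for counting error only. All 37 mitochondrial genes were listed at 0. Of 7 osteocyte markers, *Pdpn* and *Gja1* were abundant, and *Phex* had 1270 and 1328 counts in unloaded and 1532 and 1662 in loaded libraries. *Dmp1* lay at or below 14 counts, *Fgf23* at or below 9, *Sost* at or below 4 and *Mepe* at 0 in every library. The summed osteocyte markers were 687 and 689 CPM in unloaded and 848 and 770 CPM in loaded libraries, and their part in the results below was not tested. Hepatocyte markers, checked because liver is rich in transferases, summed to at most 0.124 CPM. Leukocyte markers summed to between 1560 and 1590 CPM, nearly all from *Csf1r*, with *Ptprc*, *Adgre1* and *Itgam* at 4 counts or fewer. Osteoblast markers summed to between 932 and 1030 CPM, mostly *Col1a1*, adipocyte markers to between 6.96 and 9.29 CPM and endothelial markers to between 1.71 and 3.37 CPM. Over all tested genes, 0.338% were higher and 0.565% lower at an edgeR adjusted p under 0.05. No gene of these 5 lists passed an edgeR adjusted p of 0.05. Of the osteocyte markers, *Pdpn* passed it, with 4154 and 4580 counts in unloaded and 6943 and 6798 in loaded libraries and an adjusted p = 0.0334.

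How well reads can be assigned differed between the classes, as their sequences show. *Gsta4* lies at chr9:78182774-78209349 (GRCm38, plus strand) beside *Gsta1*, *Gsta2*, *Gm3776* and *Gm10639*. The first 90 coding bases of *Gsta4* are shown with those of *Gsta1* and *Gsta2*, 5′ to 3′. The alpha genes on chromosome 9 carried the largest positive fold changes among the tested transferases. Capitals mark positions at which the 3 genes are not all alike.
Gsta4: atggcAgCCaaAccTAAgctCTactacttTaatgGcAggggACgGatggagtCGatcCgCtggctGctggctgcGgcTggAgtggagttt
Gsta1: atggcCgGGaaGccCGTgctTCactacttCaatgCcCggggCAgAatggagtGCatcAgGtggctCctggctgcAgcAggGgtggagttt
Gsta2: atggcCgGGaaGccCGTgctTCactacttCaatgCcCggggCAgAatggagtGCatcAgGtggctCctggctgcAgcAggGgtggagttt
These bases start at chr9:78198290 in *Gsta4*, at chr9:78232240 in *Gsta1* and at chr9:78341916 on the minus strand in *Gsta2*. *Gsta4* differed from both neighbours at 23 of the 90 bases, whereas *Gsta1* and *Gsta2* did not differ there. The longest identical coding run of *Gsta4* with *Gsta1* or *Gsta2* was gattgacatgtat, 13 bases. Of 1217 windows of 50 bases in the *Gsta4* transcripts, 0 occurred in the transcripts of any other gene, against 90.5% for *Gsta1* and 49.8% for *Gsta2*.

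The mu genes *Gstm1* (chr3:108012255-108017973) and *Gstm2* (chr3:107981702-107986453) are 86.0% identical over their coding sequences. Their longest identical run, coding bases 193 to 252 of both genes, is shown because a read within it fits either gene.
Gstm1 and Gstm2: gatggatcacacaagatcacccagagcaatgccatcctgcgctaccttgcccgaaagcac
The run lies at chr3:108016526-108016585 in *Gstm1* and chr3:107985254-107985313 in *Gstm2*, both on the minus strand. In the transcripts of *Gstm1*, 18.9% of 50-base windows recurred in another gene, mostly the pseudogene *Gstm2-ps1*, and in those of *Gstm2* the share was 5.65%. *Gstp1* (chr19:4035407-4037985) shared 33.7% of its windows with *Gstp2* or *Gstp-ps*, and its coding sequence is 98.1% identical to that of *Gstp2*. The counts of *Gstp1* and *Gstm1* are therefore uncertain to the extent that reads were split between copies. *Gstm5*, *Gsto1*, *Gstt1*, *Mgst1* and *Mgst3* shared no window, and *Gstz1* shared 1 of 5081. *Gstz1* and *Gstm5* overlap exons of *Pomt2* and *4933431E20Rik*, respectively, on the opposite strand, and reads of such partners cannot be told apart without strand.

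*Gsta4*, the alpha gene, had the largest fold change of the 10 genes and the smallest p. It encodes an enzyme known for conjugating 4-hydroxynonenal, an aldehyde released from oxidized lipids. Its counts were 845 and 987 without loading and 2165 and 2322 with loading, or 29.1 and 32.6 CPM against 67.1 and 77.9 CPM. Both loaded libraries lay above both unloaded libraries, by more than the difference within either group. The group means were 30.8 ± 2.46 and 72.5 ± 7.64 CPM (SD, n = 2 each). They differed 2.35-fold, which is 1.23 on the log2 scale with a standard error of 0.121 and a 95% interval from 0.94 to 1.53. The edgeR adjusted p = 0.0197 missed the study's threshold of 0.01 and passed 0.05, and the DESeq2 adjusted p = 6.46e-15 passed both. By p, *Gsta4* ranked 38 among 16269 tested genes. Leaving out loaded replicate 2 moved the edgeR adjusted p up across a threshold, with a log2 fold change of 1.12. Leaving out unloaded replicate 2 moved it down across a threshold, with a log2 fold change of 1.32. Such refits also changed the calls over all genes, and the cause was not tested.

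**Figure D1:**
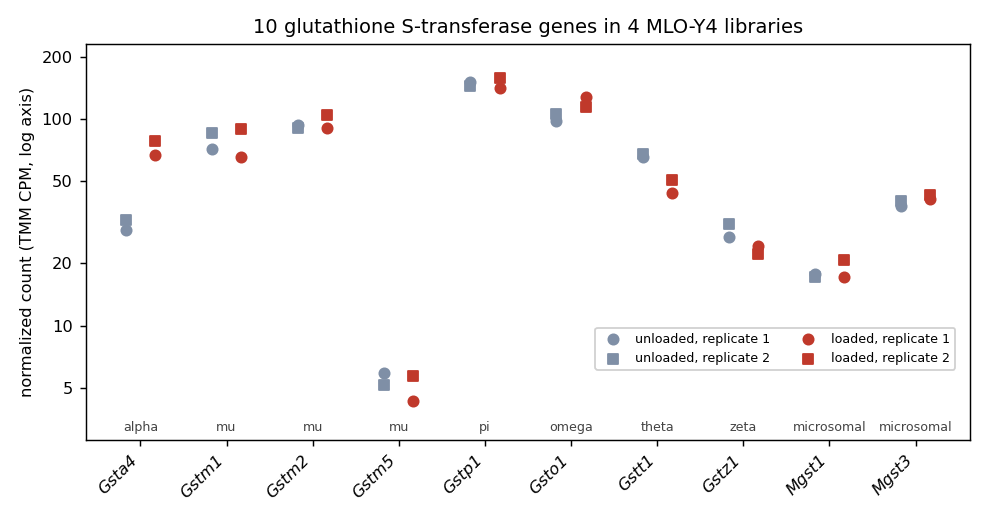
Normalized counts (TMM CPM, log axis) of the 10 transferase genes in each library, with circles for replicate 1 and squares for replicate 2, grey for unloaded and red for loaded cells, and the class written above each name. *Gsta4* moves from 29.1 and 32.6 to 67.1 and 77.9 CPM, while for most other genes the red and grey points lie at similar heights.

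At an edgeR adjusted p under 0.01, none of the 10 genes was called higher and none lower, where 0.0123% of all tested genes were higher and 0.0861% lower. Without adjustment, 4 of the 10 genes had a p under 0.05 in this test, beside 14.3% of all tested genes. At an adjusted p under 0.05, 1 of the 10 was higher, *Gsta4*, and 0 were lower, beside 0.338% and 0.565% of all tested genes. DESeq2 called *Gsta4* higher at an adjusted p under 0.01 and no other member in either direction, beside 1.36% higher and 1.55% lower of the genes it tested. In 3 genes, *Gsta4*, *Gsto1* and *Mgst3*, both loaded libraries lay above both unloaded ones, beside 22.1% of all tested genes. In 2 genes, *Gstt1* and *Gstz1*, both lay below, beside 24.5%. The median log2 fold change was 0.05 over the 10 genes and -0.01 over all tested genes, and it was 0.02 over the 9 genes without *Gsta4*.

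The mu class encodes soluble enzymes of broad substrate range, and its levels overlapped between the groups. *Gstm1* had 71.8 and 85.6 CPM in unloaded and 65.2 and 88.9 CPM in loaded libraries, so the replicates within each group lay farther apart than the group means. Its log2 fold change was -0.03 (95% interval -0.44 to 0.38, edgeR adjusted p = 0.959). *Gstm2* had 93.2 and 90.4 CPM against 90.2 and 104 CPM, with a log2 fold change of 0.08 (95% interval -0.15 to 0.32, edgeR adjusted p = 0.759). *Gstm5* (chr3:107895821-107898686) was the lowest of the 10 genes, at 5.89 and 5.15 CPM against 4.34 and 5.74 CPM. Its interval, -0.71 to 0.44 on the log2 scale around -0.13, was the widest. The direction of each of the 3 mu genes turned when single libraries were left out.

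*Gstp1* encodes the pi class enzyme, which conjugates many electrophiles and also binds stress kinases. It had the highest counts of the 10 genes, at 4358 and 4380 in unloaded and 4533 and 4712 in loaded libraries. These were 150.1 and 145 CPM against 140.5 and 158 CPM, and the unloaded values lay between the loaded ones. The log2 fold change was 0.02 (95% interval -0.18 to 0.22, edgeR adjusted p = 0.946), the narrowest interval among the 10 genes, and the sign turned when unloaded replicate 2 or loaded replicate 2 was left out.

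*Gsto1* (chr19:47854970-47864790) encodes an omega class enzyme, which has thioltransferase and dehydroascorbate reductase activity rather than the usual conjugating activity. It had 98.0 and 105 CPM in unloaded and 127 and 114 CPM in loaded libraries, without overlap. The log2 fold change of 0.25 (95% interval 0.03 to 0.46) had an unadjusted p of 0.031 in edgeR's quasi-likelihood test and an adjusted p = 0.291. The DESeq2 adjusted p was 0.211, so the difference passed no threshold over all genes.

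*Gstt1* (chr10:75783813-75798584), a theta class gene whose enzyme acts on small halogenated compounds, differed in the opposite direction. It had 1897 and 2040 counts in unloaded and 1412 and 1513 in loaded libraries, or 65.3 and 67.3 CPM against 43.8 and 50.8 CPM. Both loaded libraries lay below both unloaded libraries by more than the difference within either group. The log2 fold change was -0.49 (standard error 0.109, 95% interval -0.75 to -0.22), with an edgeR adjusted p = 0.134 and a DESeq2 adjusted p = 0.0124. It kept this sign in all 12 alternative settings, including the summed theta cluster, with values between -0.60 and -0.38. The adjusted p stayed above 0.01 in each setting that used all 4 libraries.

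*Gstz1* (chr12:87147165-87164723) encodes the zeta class enzyme, which isomerizes maleylacetoacetate in tyrosine breakdown. It had 26.9 and 31.0 CPM in unloaded and 24.2 and 22.1 CPM in loaded libraries, and the groups did not overlap. The log2 fold change was -0.32 (95% interval -0.62 to -0.03), with an unadjusted p of 0.0358 and an adjusted p = 0.309 in edgeR.

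The microsomal genes encode membrane enzymes that conjugate glutathione and also reduce lipid hydroperoxides. *Mgst1* (chr6:138140316-138156755) had 17.7 and 17.1 CPM in unloaded and 17.1 and 20.7 CPM in loaded libraries, with a log2 fold change of 0.12 (95% interval -0.22 to 0.46, edgeR adjusted p = 0.762) whose sign turned without loaded replicate 2. *Mgst3* (chr1:167371966-167393841) had 37.8 and 40.1 CPM against 41.0 and 42.6 CPM. Its loaded libraries lay above its unloaded ones by less than the difference within either group, and the log2 fold change was 0.10 (95% interval -0.13 to 0.34, edgeR adjusted p = 0.679).

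**Figure D2:**
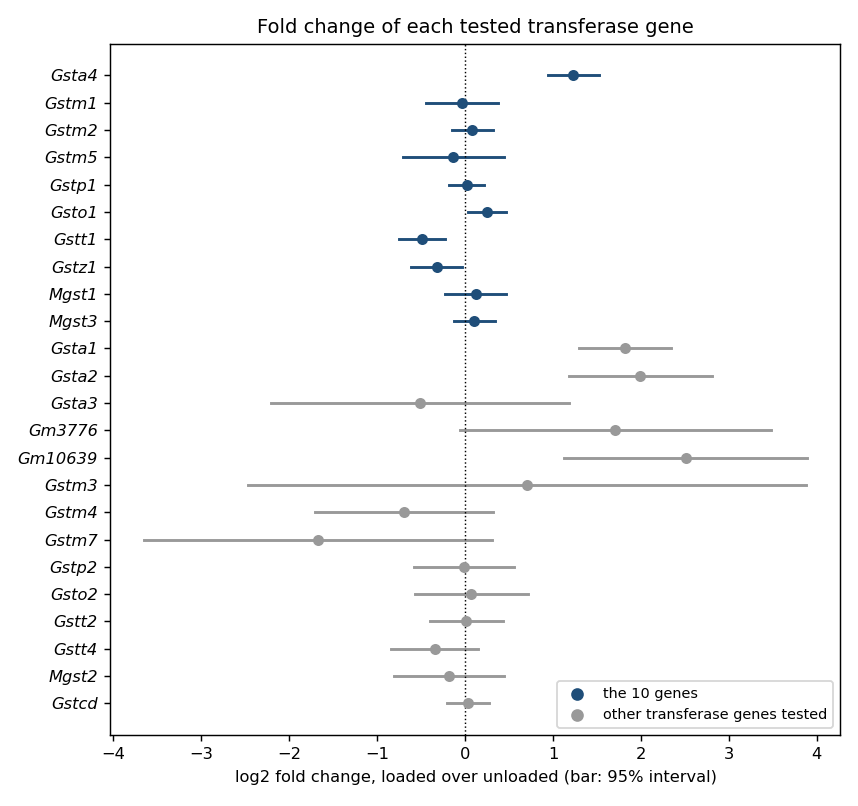
Log2 fold changes of loaded over unloaded cells (x axis) with 95% intervals from edgeR's quasi-likelihood fit, for the 10 genes (blue) and the 14 other transferase genes that were tested (grey). The interval of *Gsta4*, 0.94 to 1.53, lies above those of the other blue genes, of which the highest upper bound is 0.46.

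Since a call in one gene and none in another does not show that they differ, the count of *Gsta4* was divided by that of each other gene within each library. These ratios do not depend on the scaling of the libraries. Relative to *Gstt1*, the log2 ratio was -1.17 and -1.05 in unloaded and 0.62 and 0.62 in loaded libraries, a difference of 1.72. Relative to *Gsto1*, the gene nearest to *Gsta4* in its change, it was -1.75 and -1.69 in unloaded and -0.92 and -0.55 in loaded libraries, a difference of 0.99. For the other 7 genes the differences lay between 1.12 and 1.55. In all 9 ratios both loaded libraries lay above both unloaded libraries, and each difference exceeded the SD of either group, which was at most 0.27. The 9 ratios share the *Gsta4* counts and are not independent. An exact two-sided permutation test over the 4 libraries gave p = 0.333 for each ratio, before and after Benjamini-Hochberg adjustment over 9, which is the smallest value that 2 against 2 libraries allow.

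**Figure D3:**
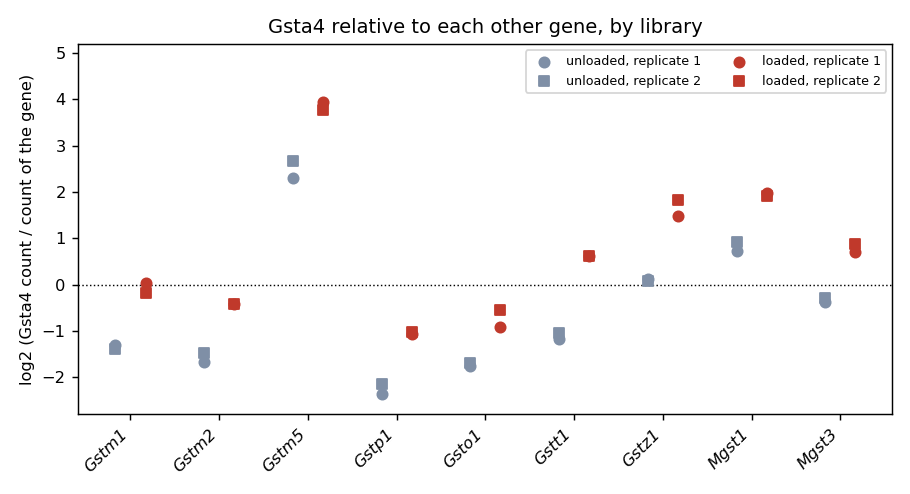
Log2 ratio of the *Gsta4* count to the count of each other gene in each library (y axis), unloaded in grey and loaded in red. In every column the red points lie above the grey ones, by 0.99 on average for *Gsto1* and by 1.72 for *Gstt1*.

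Levels were compared between genes after scaling by exon length and library size (TPM). In unloaded cells *Gstp1* was highest, at 335 and 315 TPM. *Gstm2*, *Gstm1* and *Gsto1* followed between 167.5 and 196 TPM, where the values of *Gstm1* overlapped those of both other genes. *Gstt1* came next at 148 and 148 TPM, *Mgst3* at 119 and 123 TPM, and *Gsta4* at 79.5 and 86.7 TPM. *Mgst1*, *Gstz1* and *Gstm5* lay at 30.4 TPM or below. In loaded cells *Gsta4* reached 179.7 and 205 TPM, which overlapped *Gstm1*, *Gstm2* and *Gsto1*, while *Gstt1* had 97.1 and 111 TPM and lay below *Mgst3* at 127 and 129.6 TPM. The order of *Gstp1* at the top and of *Mgst1*, *Gstz1* and *Gstm5* at the bottom was the same by group mean, although *Gstz1* and *Gstm5* overlapped in loaded cells.

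Class shares were taken over the 10 genes only, so the alpha class is *Gsta4* alone. Other genes are not counted, such as *Gsta1* (mean TPM 14.9 in unloaded and 51.7 in loaded cells), *Gstp2* (32.8 and 32.2) and *Gstt4* (19.8 and 15.3). *Gsta4* supplied 6.24% and 6.73% of the summed TPM of the 10 genes in unloaded libraries and 13.7% and 14.2% in loaded libraries. The theta share was 11.6% and 11.5% in unloaded and 7.395% and 7.66% in loaded libraries. The shares of the mu class lay between 26.2% and 30.4%, of the pi class between 23.4% and 26.3%, and of the microsomal class between 11.3% and 11.9% over all 4 libraries. The sum over all 10 genes was 1275 and 1288 TPM in unloaded and 1313 and 1445 TPM in loaded libraries. Because the gene lengths include every annotated exon, the level of *Gstz1*, with 5088 bp of exons and 651 coding bases, may be understated.

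**Figure D4:**
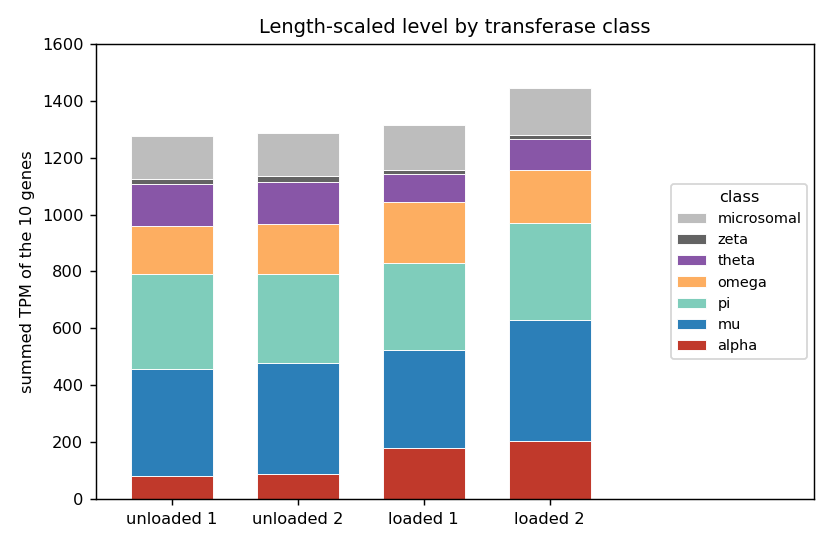
Summed TPM of the 10 genes in each library (y axis from 0), stacked by transferase class. The alpha segment, *Gsta4* alone, widens from 79.5 and 86.7 to 179.7 and 205 TPM. The theta segment, *Gstt1* alone, narrows from 148 and 148 to 97.1 and 111 TPM.

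The table held 19 other transferase genes, of which 14 had enough counts to be tested. In this set, 8 had a positive and 6 a negative log2 fold change, with a median of 0.02. *Gsta1* passed an edgeR adjusted p of 0.05 (0.0322), and *Gsta1* and *Gsta2* passed a DESeq2 adjusted p of 0.01, beside the shares of all genes given above. The 4 neighbours of *Gsta4* on chromosome 9 were all higher in both loaded libraries. *Gsta1*, at 137 and 110 against 426 and 484 counts, had a log2 fold change of 1.82, and *Gsta2*, at 68 and 45 against 198 and 272 counts, had 1.99. *Gm10639*, with 12 and 6 against 45 and 63 counts, differed by 2.51 on the log2 scale (edgeR adjusted p = 0.137), and *Gm3776*, with 15 and 4 against 34 and 32 counts, by 1.71 (edgeR adjusted p = 0.362). Because these 4 genes share long stretches of sequence, how reads were divided among them is uncertain.

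Summing the 5 chromosome 9 genes into 1 feature removes that uncertainty within the cluster. The sum was 37.1 and 38.0 CPM in unloaded and 88.9 and 106.5 CPM in loaded libraries. The groups did not overlap, and their log2 fold change was 1.38, with a standard error of 0.116 and an edgeR adjusted p = 0.01225. *Gsta3*, an alpha gene on chromosome 1, was low at 27 and 24 counts in unloaded and 30 and 8 in loaded libraries, a log2 fold change of -0.51 (95% interval -2.21 to 1.18). The 7 mu genes on chromosome 3 summed to 174 and 186 CPM against 163 and 202 CPM, and the 3 pi genes on chromosome 19 to 159 and 157 CPM against 153 and 167 CPM, each with a log2 fold change of 0.02. The 4 theta genes on chromosome 10 summed to 81.4 and 83.5 CPM against 59.7 and 64.5 CPM, lower in both loaded libraries, with a log2 fold change of -0.41, a standard error of 0.0902 and an edgeR adjusted p = 0.132. Within that cluster *Gstt4* had 165 and 175 against 149 and 131 counts, and *Gstt2* had 301 and 304 against 365 and 277. *Gstk1*, the kappa class gene, was listed at 0 in all 4 libraries.

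NRF2 binds DNA at antioxidant response elements, whose core can be written TGACNNNGC. This motif was searched on both strands of RefSeq promoter windows (GRCm38.p6, from 250 bases before to 50 bases after a start), which covered 9 of the 10 genes with 12 windows. *Gsta4* was the gene without a window, so its promoter was not searched. It occurred in 2 of the 12 windows, 1 of *Gstm5* and 1 of *Mgst1*, and in 12.4% of all 32851 windows. Both are shown with the motif in capitals, and neither gene had a called difference.
Gstm5: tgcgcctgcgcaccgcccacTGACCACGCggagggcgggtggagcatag
Mgst1: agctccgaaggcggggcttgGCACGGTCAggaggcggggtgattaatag
The *Gstm5* window lies at chr3:107895792-107895840 with the motif on the plus strand, 42 bases before the start. The *Mgst1* window lies at chr6:138140451-138140499 with the motif on the opposite strand. A match is a string of letters and not a measured binding site, and sites outside the windows were not searched. In the windows of *Gsta1*, *Gsta2*, *Gm3776* and *Gm10639*, the motif occurred 0 times. The paper reported NRF2 binding at a regulatory region of *Gsta2*, measured by ChIP-seq. It also reported a higher signal of the histone mark H3K27ac and higher *Gsta2* expression under loading. Its figures show predicted NRF2 motifs at this locus. Whether that region overlaps the window searched here was not examined.

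The pathway around the transferases was described with lists of related genes. Of 12 genes for glutathione precursor uptake, synthesis, recycling, breakdown and transport, 10 had a positive log2 fold change. So did 7889 of all 16269 tested genes, and the median of the list was 0.16. The 10 include *Chac1* (0.16) and *Chac2* (0.11), whose enzymes break glutathione down. *Slc7a11*, the cystine importer, passed an edgeR adjusted p of 0.05 (0.0361) and a DESeq2 adjusted p of 0.01 (7.55e-09), with 1808 and 1705 against 3165 and 3188 counts. *Gss*, which encodes glutathione synthetase, passed a DESeq2 adjusted p of 0.01 (0.00767) and not the edgeR threshold (adjusted p = 0.113), with 1654 and 1610 against 2412 and 2248 counts. These 2 of 12 genes were the list's DESeq2 calls, beside 1.36% of all genes called higher.

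Enzymes that use or dispose of glutathione were described in the same way. The list of glutathione peroxidases and glutaredoxins also holds the peroxiredoxin gene *Prdx6*. Among its 9 tested genes, 3 had a positive and 6 a negative log2 fold change, between -0.27 and 0.26. None passed an edgeR adjusted p of 0.05 or a DESeq2 adjusted p of 0.01. Of 13 tested genes for conjugate export and mercapturate processing, 5 were positive and 8 negative, between -2.09 and 0.57, and none passed either threshold. Over all tested genes, 0.338% higher and 0.565% lower passed in edgeR, and 1.36% and 1.55% in DESeq2. Of 14 other enzymes that clear lipid aldehydes or methylglyoxal, 10 were positive, beside 7889 of all 16269 tested genes, with a median of 0.05. *Aldh3a1*, an aldehyde dehydrogenase that oxidizes aldehydes of the kind that *Gsta4* conjugates, had 1650 and 1923 counts in unloaded and 3028 and 2724 in loaded libraries. It differed by 0.62 on the log2 scale, with a standard error of 0.0948, an edgeR adjusted p = 0.0557 and a DESeq2 adjusted p = 1.44e-05. *Aldh3a1* was the list's only DESeq2 call, beside 1.36% of all genes called higher.

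**Figure D5:**
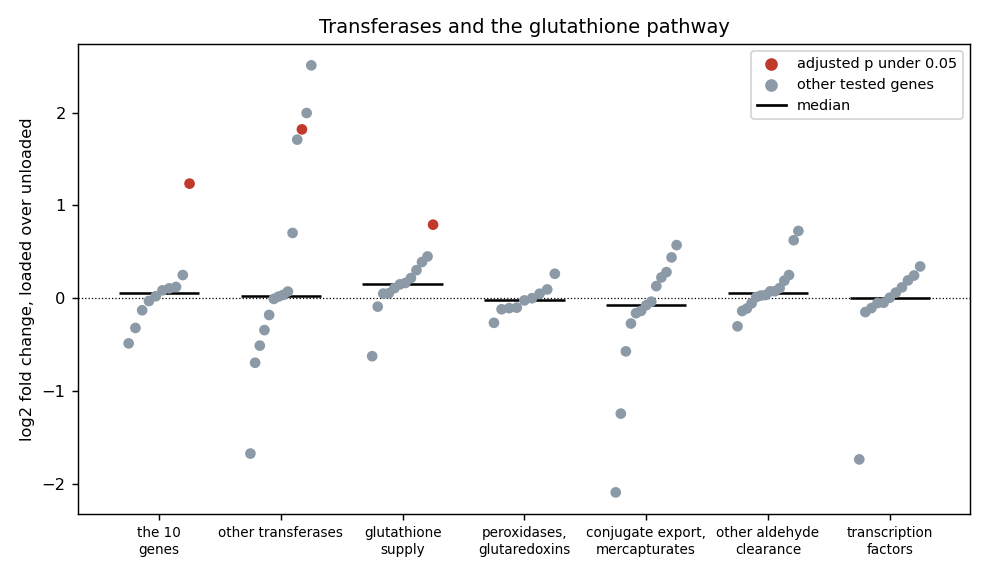
Log2 fold changes of loaded over unloaded cells (y axis) for the 10 genes and for the tested genes of 6 related lists, with a line at each median. Red points passed an edgeR adjusted p of 0.05, which were *Gsta4*, *Gsta1* and *Slc7a11*, and the medians lie between -0.08 and 0.16.

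Of 11 transcription factors and partners known to act on transferase genes, 6 had a positive and 5 a negative log2 fold change, with a median of 0.00. *Nfe2l2*, which encodes NRF2, had a log2 fold change of -0.11 (95% interval -0.26 to 0.04), and *Keap1*, its repressor, had -0.05 (95% interval -0.39 to 0.29). The paper likewise saw no change in *Nfe2l2* RNA, but by Western blot it reported more total and nuclear NRF2 protein under loading. RNA counts do not measure protein. *Bach2*, a repressor that binds related DNA motifs, had 434 and 343 counts in unloaded and 81 and 160 in loaded libraries. Its log2 fold change was -1.74 (standard error 0.369), which passed a DESeq2 adjusted p of 0.01 (0.000192) and not the edgeR thresholds (adjusted p = 0.125). *Bach2* was the list's only DESeq2 call, beside 1.55% of all genes called lower.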

How the data were processed

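Counts per gene from 2 unloaded and 2 loaded MLO-Y4 libraries were used as deposited. The authors mapped trimmed reads to mm10 with HISAT2 2.1.0, assembled transcripts with StringTie 1.3.5 and derived the deposited counts with StringTie's prepDE script, which converts coverage to whole numbers, so these counts are estimates. The read length, annotation release and strandedness are not given in the sources used here. All 55450 identifiers matched GENCODE M21 (GRCm38), which supplied coordinates, exon lengths and transcripts.

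Genes were filtered with filterByExpr (minimum 10, 16269 genes kept), normalized by TMM and tested with edgeR 4.0.16 (glmQLFit, glmQLFTest) in R 4.3.3, with p-values adjusted by the Benjamini-Hochberg method across the genes tested, at the study's threshold of 0.01. The study used DESeq2 (version 1.32.0). DESeq2 1.42.0 and limma-voom (limma 3.58.1) were alternatives. Standard errors are the fold change over the square root of F, and 95% intervals use the fit's degrees of freedom. CPM values are TMM-scaled, and TPM used all annotated exons. The edgeR, DESeq2 and voom fits were tested on counts simulated from these libraries with known changes. At an adjusted p under 0.05, DESeq2 made a larger share of false calls there than this threshold, and edgeR and voom did not. The threshold of 0.01 was not simulated. The simulated dispersions were drawn around a common value for all genes, which may differ from these data. Coding sequences were aligned with Biopython 1.88.

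The members and gene lists were chosen with earlier results of these data known. Named genes are the 10 members, list genes passing an edgeR adjusted p of 0.05 or a DESeq2 adjusted p of 0.01 (at most 6 a list), *Nfe2l2*, *Keap1* and the 5 genes nearest to *Gsta4* in pattern. Other transferases were named to complete a class or cluster and the markers to check the cell type, in part after their values were seen. *Chac1*, *Chac2* and *Prdx6* were named later, to say what their lists hold.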

Additional observations from a re-analysis of the deposited data

How the results depend on the processing

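In the 5 alternatives run for each, the 9 *Gsta4* log2 ratios kept the sign of their loaded minus unloaded difference. *Gsto1*, *Gstt1*, *Gstz1* and *Mgst3* kept the sign of their log2 fold change in the 11 or 12 alternatives run for them. In those that used all 4 libraries, their adjusted p stayed above 0.01. With the chromosome 9 cluster summed, the value was 1.38. *Gsta4* itself stayed between 1.12 and 1.34. It passed 0.01 with DESeq2 (1.24), and values without 1 library ranged from 1.12 to 1.34, with a pass only without unloaded replicate 2 (1.32). When 1 library was left out, the lone library was assumed to vary like the other group. Without 1 library, values turned sign within -0.273 to 0.178 for *Gstm1* (0.0998 without unloaded replicate 2), -0.0270 to 0.188 for *Gstm2*, -0.347 to 0.0593 for *Gstm5*, -0.0690 to 0.105 for *Gstp1* (-0.00826 without unloaded replicate 2) and -0.0262 to 0.255 for *Mgst1*. With the mu cluster summed, the value of *Gstm1* and *Gstm5* became 0.01985. The number of members called higher was 1 with DESeq2 and at an adjusted p under 0.05, and 0 to 1 without 1 library. For all genes, 170 higher and 193 lower were called with DESeq2, 55 and 92 at an adjusted p under 0.05, 4 and 25 with at least 10 counts in every library, and 0 and 0 without a low-count filter. Without 1 library they ranged from 0 to 19 higher and from 0 to 40 lower, with 0 and 0 when loaded replicate 1 or loaded replicate 2 was left out. The cause of these shifts was not tested. With the replicate number as a block, 0 genes were called higher and 0 lower, and *Gsta4* had 1.23 (edgeR adjusted p = 0.0259). The replicate numbers pair nothing by label, and the deviations of same-numbered libraries correlated at -0.057 across genes. RLE and upper-quartile scaling moved the median gene by at most 0.009 on the log2 scale. With 2 libraries a group, differences such as those of *Gsto1* and *Gstz1* were not resolved over all genes.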

Other observations

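The genes whose pattern over the 4 libraries lay closest to that of *Gsta4*, by Euclidean distance of centred log2 CPM, were *5330431K02Rik* (0.149), *Gm21154* (0.159), *Npas1* (0.173), *Coro2b* (0.175) and *Pcsk4* (0.202). Of these, 4 had a mean below 1 CPM in unloaded cells, and none passed an edgeR adjusted p of 0.05. The distance covers 4 libraries only.

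The processed pseudogene *Gstp-ps* on chromosome 1, which shares 71.1% of its 50-base windows with *Gstp1* or *Gstp2*, reached 143 and 158 TPM in unloaded and 154 and 119 TPM in loaded libraries. The groups overlapped, and how many of these reads came from *Gstp1* was not tested.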
